A study of Mus musculus with 6 samples.

Results

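Elastic fibre and microfibril genes were followed across the epithelium and the surrounding mesenchyme of the mouse bladder at embryonic day 13. The group was fixed as 10 gene symbols (Eln, Fbn1, Fbn2, Mfap2, Mfap4, Mfap5, Fbln1, Fbln2, Fbln5 and Lox), and a probe set belonged to it when the platform annotation gave it 1 of these symbols and no other. This rule found 19 probe sets of 9 genes, among 45101 probe sets and 18193 genes in all. Fbn1, the gene of fibrillin 1, had no probe set named by the annotation used and was not analysed here.

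Elastic fibres give extensible tissues, the wall of the bladder among them, their recoil. Their core is made of tropoelastin, which is laid down on a scaffold of fibrillin microfibrils, guided by fibulins and microfibril-associated glycoproteins, and then cross-linked by lysyl oxidase. Microfibrils form before elastin is deposited and are also found where no elastin is made.

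The study compared bladder mesenchyme, on 3 arrays (numbered 1, 2 and 4 in the labels), with bladder urothelium, also named epithelial cells, on 3 arrays (numbered 5, 7 and 8). All embryos were wild-type FVB/N of unknown sex at Theiler stage 21, and the bladder was cut above the ureters, held in 20 µM EDTA for 20 minutes and parted with a needle into both layers. The labels call the samples not pooled and do not say that they came from separate embryos or litters, so the p-values rest on a spread between samples that may be technical. RNA was amplified in 2 rounds and read on Affymetrix MOE430 arrays.

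Values are array signals on a linear scale, with the mean ± SD of 3 arrays. The signals of different probe sets cannot be set against each other, so genes were compared by their differences between the layers. A difference is mesenchyme minus urothelium on the log2(signal + 45.1) scale, where 45.1 is the 25th percentile of all signals, and it understates the change of dim genes. It was tested with limma over 18193 genes, and an adjusted p under 0.05 passed. The median gene differed by 0.11 on this scale. In RNA from a whole layer, fewer cells of a type and less RNA per cell cannot be told apart.

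The layers matched their labels. All 8 epithelial markers, among them Cdh1 and Krt8, were higher in urothelium, and all 9 mesenchymal markers, among them Col1a1 and Pdgfra, were higher in mesenchyme. Markers of other cell types of that layer were higher on the mesenchyme arrays as well. These were 7 of 7 endothelial, 6 of 7 smooth muscle and 4 of 6 macrophage markers, against 8.91% of all genes. Summed smooth muscle signals were 70320 to 96776 in mesenchyme, against 3224 to 3741 in urothelium. Summed macrophage signals were 6165 to 8859 in mesenchyme, against 835.2 to 858.9 in urothelium. Such sums mostly follow their brightest marker, which in mesenchyme was Acta2 (52353 to 58922) for smooth muscle and Csf1r (3900 to 5906) for macrophages. Of 4 mesothelial markers 2 were higher in mesenchyme and 1 in urothelium, and of 3 measured glial and neuronal markers 0 passed. None of these markers read 0 on any array, but without detection calls that does not show their cells to be present. The lowest signal, 3.63 for an endothelial marker in urothelium, lay below the 25th percentile of all signals (45.1). The part of these cell types in the values that follow was not tested. The beta-actin control, read near both ends of its transcript, gave a 3' signal 8.40 times the 5' signal on mesenchyme 1 and 8.60 times on urothelium 5. The remaining 4 arrays had ratios of 2.29 to 4.89.

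All 9 measured genes were higher in mesenchyme and 0 in urothelium, where 8.91% and 5.80% of all genes were. Their median log2 difference was 2.76. Every mesenchyme array lay above every urothelium array for 9 of 9, as for 18.1% of all genes. The size of the difference was far from uniform. It was largest for Mfap4, Fbln5, Lox and Fbn2, each more than 16-fold, as were 1.04% of all genes, and smaller for Eln, Fbln2, Mfap2, Mfap5 and Fbln1, each under 7-fold. This holds for the brightest probe set of each gene: with all probe sets of a gene averaged, only Mfap4, with 1 probe set, stayed past 16-fold, at a log2 difference of 5.59, and Fbn2, Lox and Fbln5 differed by 3.97, 3.76 and 3.55 on that scale. On the probe sets used, Mfap4, Fbln5, Lox and Fbn2 were also the brightest in mesenchyme, with means of 12918 (Fbln5) to 45272 (Fbn2). The others averaged 931 (Mfap5) to 9888 (Fbln1). The part of brightness in the split was not tested.

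**Figure D1:**
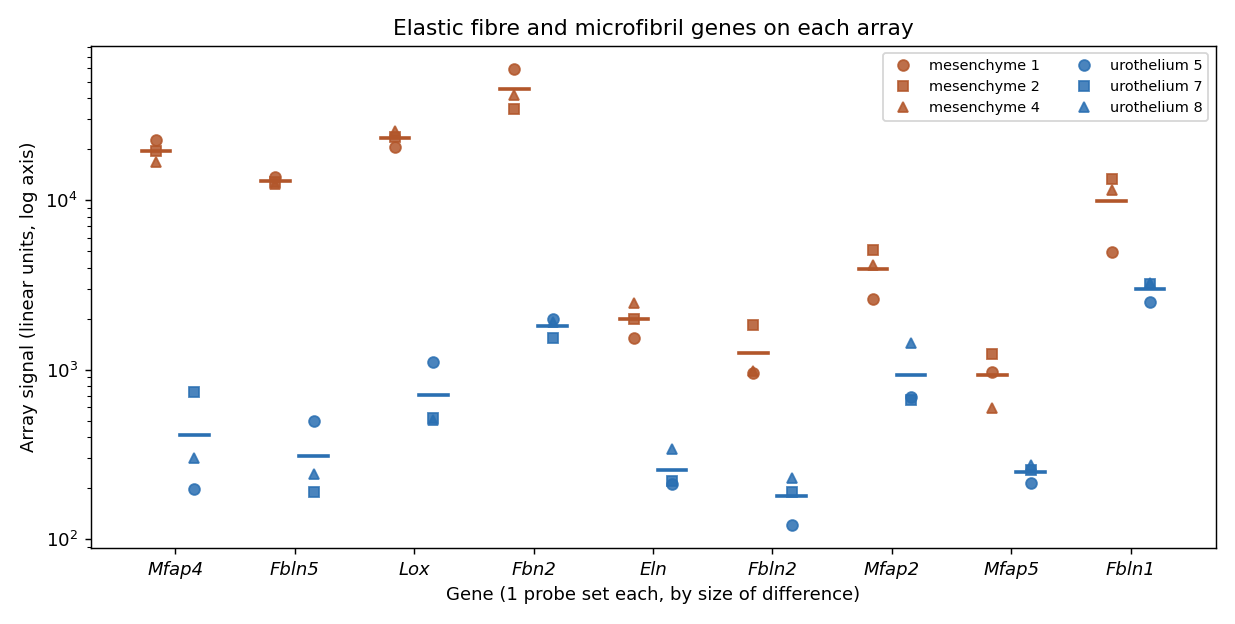
Array signal (linear units on a log axis) of the 9 measured genes, 1 probe set each, on 3 mesenchyme arrays (left of each pair, brown) and 3 urothelium arrays (right, blue), with a bar at the mean. Within each gene every mesenchyme array lies above every urothelium array; heights of different genes are not comparable.

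Elastin is the core protein of the fibre, and Eln, its gene, had signals of 1546, 1979.9 and 2471 on mesenchyme 1, 2 and 4, against 209.9, 219.3 and 338.4 on urothelium 5, 7 and 8. The lowest mesenchyme array was more than 4 times the highest urothelium array. Eln averaged 1999 ± 463 in mesenchyme and 255.9 ± 71.6 in urothelium, a log2 difference of 2.76 ± 0.37 (SE), or 6.79-fold, with a limma adjusted p of 0.000448. A second Eln probe set read 32.3, 1179.6 and 51.7 in mesenchyme, against 18.2, 17.9 and 21.0 in urothelium. On that probe set mesenchyme 2 alone was bright, and its difference of 1.71 ± 0.86 did not pass over all probe sets (adjusted p = 0.350).

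Fibrillins are large glycoproteins that polymerise into the microfibril, and fibrillin 2 is the form best known from embryonic tissue. Its gene, Fbn2, gave 59717, 34567 and 41532 on mesenchyme 1, 2 and 4, against 1979.4, 1528 and 1903 on urothelium 5, 7 and 8. Fbn2 averaged 45272 ± 12985 in mesenchyme and 1803 ± 242 in urothelium, a log2 difference of 4.59 ± 0.28 (24.0-fold, adjusted p = 2.95e-06). This was the smallest adjusted p of the 9 genes and only the fourth difference in size. A second Fbn2 probe set gave 463.9, 5654 and 2469 in mesenchyme, against 89.9, 112.9 and 277.6 in urothelium, and also passed (3.35 ± 0.75, adjusted p = 0.0205). The order of the mesenchyme arrays was turned round between both probe sets: mesenchyme 1, with the highest actin ratio (8.40), was the brightest on the first and the dimmest on the second, and mesenchyme 2, with the lowest of that layer (2.37), was the dimmest on the first and the brightest on the second. The part of RNA quality in this was not tested.

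The microfibril-associated glycoproteins bind fibrillin, and MAGP-1 and MAGP-2 are encoded by Mfap2 and Mfap5. Mfap2 gave 2623, 5056 and 4164 on the mesenchyme arrays, against 687.6, 657.8 and 1427 on the urothelium arrays. It averaged 3948 ± 1231 in mesenchyme and 924.0 ± 435.5 in urothelium, a log2 difference of 2.08 ± 0.39 (4.23-fold, adjusted p = 0.00356). Urothelium 8 stood above the other urothelium arrays, though below every mesenchyme array. A second Mfap2 probe set differed by 1.94 ± 0.42, close to the first, and passed (adjusted p = 0.0163).

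Mfap5 had 965.5, 1233 and 594.4 in mesenchyme, against 213.1, 256.7 and 274.2 in urothelium. Mfap5 averaged 931 ± 321 in mesenchyme and 248 ± 31.4 in urothelium, and the log2 difference was 1.68 ± 0.41 (3.21-fold, adjusted p = 0.0170). This was the weakest call of the 9: it was lost without mesenchyme 2 (1.46, adjusted p = 0.101), without urothelium 5 (1.60, 0.0502), without urothelium 7 (1.71, 0.0640) and without both mesenchyme 1 and urothelium 5 (1.54, 0.0517). A second Mfap5 probe set, with at most 447.4 on any array, leaned the same way but did not pass (1.37 ± 0.49, adjusted p = 0.149).

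Mfap4 belongs to another family despite its name: it is a fibrinogen-related glycoprotein that binds microfibrils and tropoelastin. Its signals were 22612, 19399 and 16736 in mesenchyme, against 198.2, 735.5 and 299.8 in urothelium. Mfap4 averaged 19582 ± 2943 in mesenchyme and 411 ± 285 in urothelium. Its log2 difference of 5.59 ± 0.41 (48.3-fold, adjusted p = 7.54e-06) was the largest of the 9 genes and the 12th towards mesenchyme of all genes. Mfap4 has 1 probe set, so no second one could be compared.

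Fibulins are calcium-binding glycoproteins of basement membranes and elastic fibres, and their genes spanned nearly the whole range of differences. Fbln5, whose protein binds tropoelastin and is needed for elastic fibres to form in mice, had 13638, 12732 and 12385 in mesenchyme, against 496.2, 188.3 and 240.5 in urothelium. The mesenchyme arrays differed little among themselves, with a mean of 12918 ± 647, against 308 ± 165 in urothelium. The log2 difference was 5.29 ± 0.35 (39.2-fold, adjusted p = 4.47e-06). A second Fbln5 probe set, at 329.7, 303.8 and 45.4 in mesenchyme, against 14.5, 28.5 and 18.1 in urothelium, did not pass (1.81 ± 0.55, adjusted p = 0.0863).

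Fbln2 encodes a fibulin of basement membranes and vessel walls. It had 956, 1831 and 980.5 in mesenchyme, against 120.3, 188.4 and 230.2 in urothelium. It averaged 1256 ± 499 in mesenchyme and 179.6 ± 55.5 in urothelium, with a log2 difference of 2.50 ± 0.43 (5.66-fold, adjusted p = 0.00208). A second Fbln2 probe set did not exceed 30.5 on any array and did not pass (−0.33 ± 0.21, adjusted p = 0.501). In the mean of both probe sets the difference of Fbln2 was 1.09 and just missed the threshold (adjusted p = 0.0501).

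Fbln1, the gene of the first fibulin described, had 4942, 13295 and 11426 in mesenchyme, against 2509.7, 3206 and 3236 in urothelium. Mesenchyme 1 was the dimmest of its layer by far and still above the urothelium arrays. Fbln1 averaged 9888 ± 4384 in mesenchyme and 2984 ± 411 in urothelium, and its log2 difference of 1.60 ± 0.37 (3.04-fold, adjusted p = 0.0125) was the smallest of the 9 genes. The call was lost without mesenchyme 2 (1.33, adjusted p = 0.0579), without mesenchyme 4 (1.44, 0.0550) and with arrays centred on their medians (1.42, 0.0512). The other Fbln1 probe sets did not agree: one differed by 2.30 ± 0.36 (adjusted p = 0.00245), and the other, between 187.3 and 306.3 on all arrays, by −0.30 ± 0.43 with overlap between the layers (adjusted p = 0.808).

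Lysyl oxidase is the copper enzyme that oxidises lysines of tropoelastin and collagen so that they cross-link. Its gene, Lox, gave 20609, 23732 and 25518 in mesenchyme, against 1102, 518.4 and 503.1 in urothelium. Lox averaged 23286 ± 2485 in mesenchyme and 708 ± 342 in urothelium, with a log2 difference of 5.04 ± 0.33 (32.8-fold, adjusted p = 4.18e-06). A second Lox probe set differed by nearly the same amount, 5.02 ± 0.55 (adjusted p = 0.000198). Another one, at 164.5, 106.7 and 34.6 in mesenchyme, against 2.3, 5.5 and 40.1 in urothelium, overlapped between the layers and did not pass (1.21 ± 0.42, adjusted p = 0.138).

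**Figure D2:**
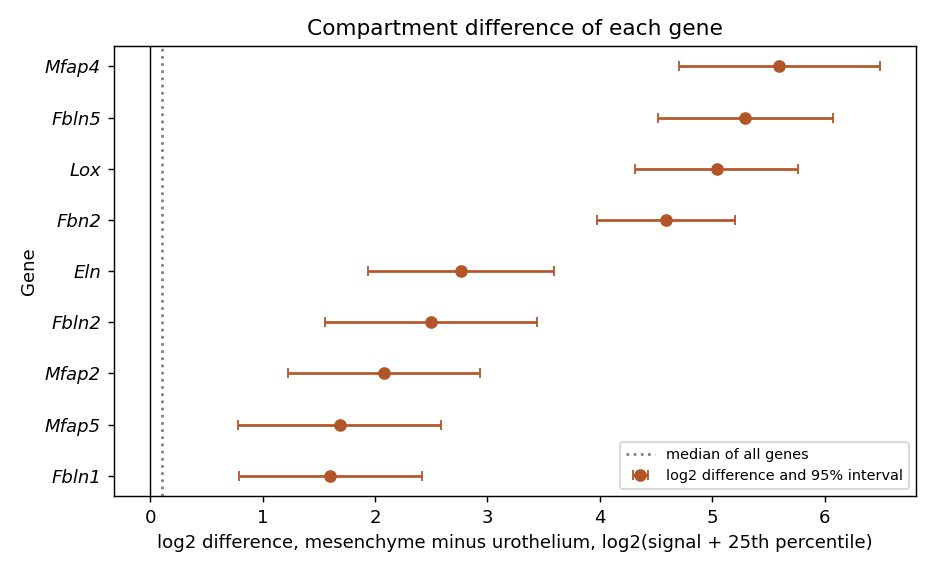
Log2 difference of each gene, mesenchyme minus urothelium, with its 95% interval, in order of size. The intervals of Mfap4, Fbln5, Lox and Fbn2 start at 3.97 or higher and those of the other 5 genes end at 3.59 or lower, a separation that the mean of probe sets does not show; the dotted line marks the median of all genes at 0.11.

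Ordered by size, the differences ran from Mfap4 over Fbln5 (5.29), Lox (5.04) and Fbn2 (4.59) to Eln (2.76), Fbln2 (2.50), Mfap2 (2.08), Mfap5 (1.68) and Fbln1 (1.60). The 95% intervals of neighbours overlapped at every step except that between Fbn2 (3.97 to 5.20) and Eln (1.94 to 3.59), where the gap was 1.82. In the mean of probe sets all neighbours overlapped, Fbln5 (2.75 to 4.35) and Eln (1.07 to 3.40) included, and the gap between them was 1.31. The break was seen after the values and has no test of its own. It also parts the probe sets that were brighter in mesenchyme from the dimmer ones.

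Paralogs were compared through the log2 ratio of their probe sets on each array, of which only the difference between the layers can be read. Fbln1 over Fbln5 averaged −0.50 ± 0.83 in mesenchyme and 3.19 ± 0.83 in urothelium, a shift of −3.69. Fbln2 over Fbln5 averaged −3.38 ± 0.54 in mesenchyme and −0.59 ± 0.97 in urothelium, a shift of −2.79. The mesenchyme and urothelium arrays did not overlap in either ratio, nor in Fbln1 over Fbln2, which shifted by −0.90. For these 3 pairs the exact two-sided permutation p was 0.1, the smallest that 3 against 3 arrays allow, and 0.133 adjusted over the 4 pairs compared, so none could pass. The shift of Fbln1 over Fbln2 depends on the Fbln1 probe set. The one used differed by 1.60 between the layers, another bright one by 2.30, and Fbln2 by 2.50. Mfap2 over Mfap5 averaged 2.04 ± 0.66 in mesenchyme and 1.64 ± 0.51 in urothelium, and its shift of 0.40 lay within the spread of the arrays (exact permutation p = 0.6).

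Over all 19 probe sets, 13 passed as higher in mesenchyme and 0 as higher in urothelium, where 4.46% of all probe sets were higher in mesenchyme. Every mesenchyme array lay above every urothelium array for 16 of 19, as for 13.4% of all probe sets. The 6 that did not pass were dim, with a mean of at most 421.2 in mesenchyme. Each belonged to a gene whose brighter probe set passed, among Eln, Mfap5, Fbln1, Fbln2, Fbln5 and Lox.

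**Figure D3:**
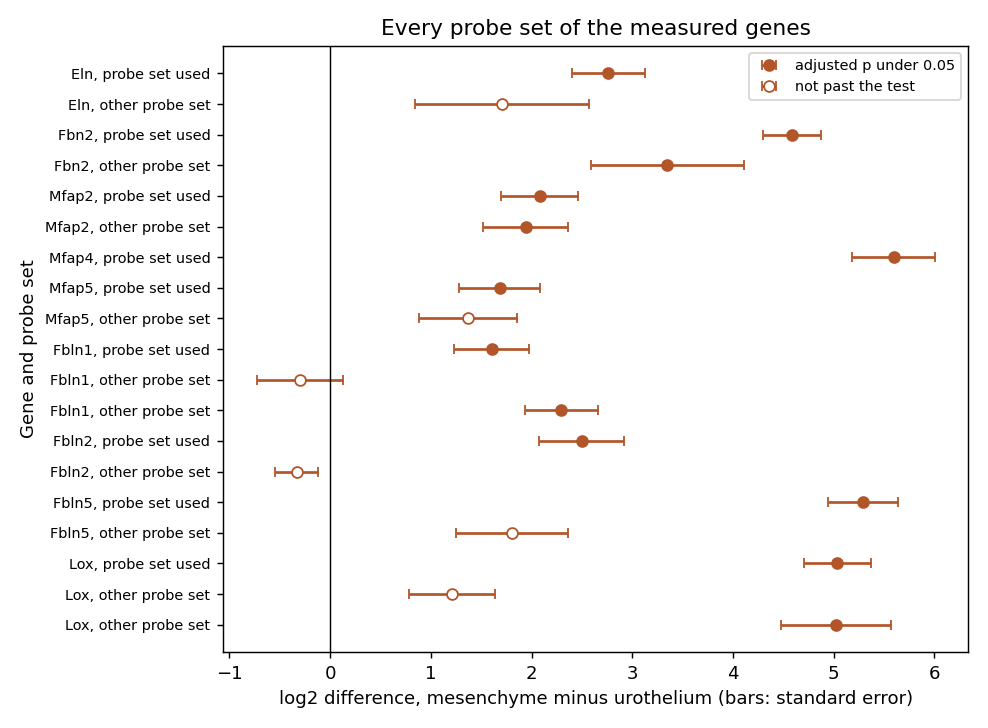
Log2 difference, mesenchyme minus urothelium, with its standard error, for all 19 probe sets of the 9 genes; filled points had an adjusted p under 0.05 over all probe sets. The 13 filled points are all above 0, and both points below 0 belong to second probe sets of Fbln1 and Fbln2.

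Within mesenchyme the arrays took different orders from gene to gene. Mesenchyme 1 was the lowest of the 3 for 5 genes (Eln, Mfap2, Fbln1, Fbln2 and Lox) and the highest for 3 (Fbn2, Mfap4 and Fbln5). Averaged over the 9 genes, log2 signals deviated from the mean of the layer by −0.15 on mesenchyme 1, 0.18 on mesenchyme 2 and −0.03 on mesenchyme 4. Without both mesenchyme 1 and urothelium 5, 8 of the 9 genes passed.

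The same contrast can be given as the signal of each gene on the urothelium arrays in percent of its mean in mesenchyme, which allows it to be set beside the markers. Mfap4 kept 2.10%, Fbln5 2.39%, Lox 3.04% and Fbn2 3.98%. These shares lay within the range of the 9 mesenchymal markers, which kept 1.12% (Cdh11) to 7.26% (Col3a1). Eln kept 12.8%, Fbln2 14.3%, Mfap2 23.4%, Mfap5 26.6% and Fbln1 30.2%, all above every one of the mesenchymal markers. In mesenchyme Eln, Fbln2, Mfap2 and Mfap5 averaged 931 (Mfap5) to 3948 (Mfap2) and Fbln1 9888, and the markers 5961 (Pdgfrb) to 96865 (Col3a1). In urothelium these genes averaged 179.6 (Fbln2) to 2984 (Fbln1), and the markers 219.1 (Pdgfrb) to 7033 (Col3a1). A larger share is therefore not a larger signal in urothelium. The share depends on the probe set: the other Fbln1 set that passed kept 19.6% and the second Eln set, which did not pass, kept 4.52%. On urothelium 5, 7 and 8 the median mesenchymal marker kept 4.10%, 3.02% and 3.03%, against 25.4%, 32.4% and 32.7% for Fbln1 and 22.9%, 27.6% and 29.5% for Mfap5. Mfap2 kept 17.4%, 16.7% and 36.1%. What these shares rest on was not tested, and no detection calls were used here. The endothelial markers kept 2.67% to 10.4% and the macrophage markers 5.58% to 47.5% of their mesenchymal signal. Smooth muscle markers kept 0.82% to 97.9%, with a median of 2.06%. The highest of them was Des, which averaged 222.0 in mesenchyme and 217.3 in urothelium.

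**Figure D4:**
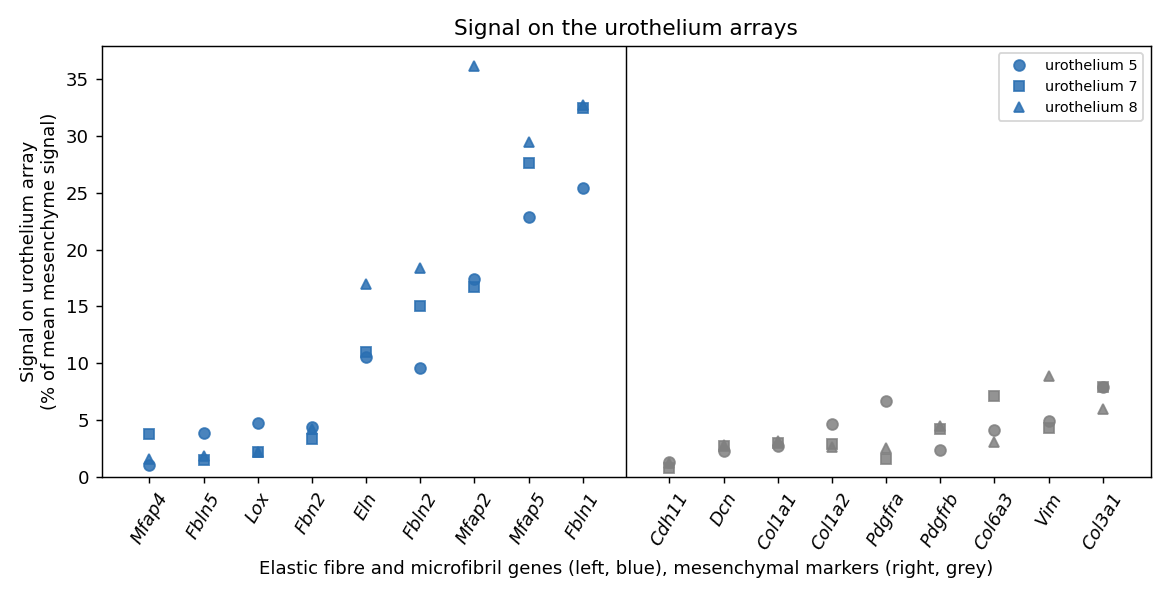
Signal on urothelium arrays 5, 7 and 8 as a percentage of the mean mesenchyme signal, for the 9 genes (left, blue) and 9 mesenchymal marker genes (right, grey). Mfap4, Fbln5, Lox and Fbn2 lie among the markers, and Eln, Fbln2, Mfap2, Mfap5 and Fbln1 lie higher, up to 36.1% for Mfap2 on urothelium 8. Mean mesenchyme signals were 931 to 3948 for Eln, Fbln2, Mfap2 and Mfap5 and at least 5961 for every marker.

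Promoter windows were looked at because the genes differ in the same direction, and those of the fibulins because their differences were so unequal. RefSeq (GRCm38.p6) windows of 300 bases, from 250 before to 50 after a transcript's start, were examined for 4 of the 9 measured genes. Windows of the other measured genes were not examined, whether or not RefSeq holds them. The first window listed for each of the 4 genes is printed 5′ to 3′ on the gene's strand, with GC boxes (GGGCGG on either strand) in capitals.
Mfap2, chr4:141010431-141010730 on the plus strand: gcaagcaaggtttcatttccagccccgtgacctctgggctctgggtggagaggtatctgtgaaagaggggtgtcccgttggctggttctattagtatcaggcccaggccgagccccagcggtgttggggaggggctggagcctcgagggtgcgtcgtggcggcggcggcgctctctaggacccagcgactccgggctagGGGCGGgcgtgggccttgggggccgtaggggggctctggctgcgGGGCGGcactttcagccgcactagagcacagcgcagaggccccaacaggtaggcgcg
Fbln1, chr15:85205699-85205998 on the plus strand: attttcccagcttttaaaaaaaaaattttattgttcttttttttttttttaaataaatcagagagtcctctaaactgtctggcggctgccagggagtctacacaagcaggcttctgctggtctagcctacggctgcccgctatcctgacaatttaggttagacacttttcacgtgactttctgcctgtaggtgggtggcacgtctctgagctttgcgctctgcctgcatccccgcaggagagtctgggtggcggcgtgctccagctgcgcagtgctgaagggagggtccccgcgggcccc
Fbln2, chr6:91212514-91212813 on the plus strand: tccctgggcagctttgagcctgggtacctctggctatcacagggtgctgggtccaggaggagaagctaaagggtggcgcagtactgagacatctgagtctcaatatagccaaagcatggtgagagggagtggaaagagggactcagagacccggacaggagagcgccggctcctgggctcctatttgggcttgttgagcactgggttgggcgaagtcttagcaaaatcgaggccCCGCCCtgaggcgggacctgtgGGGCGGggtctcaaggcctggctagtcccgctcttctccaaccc
Fbln5, chr12:101819070-101819369 on the minus strand: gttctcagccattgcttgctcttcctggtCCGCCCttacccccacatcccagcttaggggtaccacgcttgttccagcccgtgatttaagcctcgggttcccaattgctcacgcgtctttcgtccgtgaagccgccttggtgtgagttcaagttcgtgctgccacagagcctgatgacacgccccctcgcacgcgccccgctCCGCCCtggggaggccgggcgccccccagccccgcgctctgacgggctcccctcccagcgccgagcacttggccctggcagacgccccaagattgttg

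The windows printed for Mfap2, Fbln2 and Fbln5 hold 2 GC boxes each and that for Fbln1 holds 0. A second Fbln1 window, which starts further along the gene and overlaps this one, holds 2, and the second windows of Mfap2 and Fbln5 hold 0. Of 32851 such windows in the whole table, 35.7% hold at least 1 GC box. No TATA box (TATAAA) and no AP-1 site (TGANTCA, on either strand) was found in the windows of these 4 genes, and 13.6% and 7.8% of all windows hold them. A match is a run of letters and no evidence of binding.

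Of 32 other genes of elastic fibre assembly, 29 were measured. In this list 11 were higher in mesenchyme and 0 in urothelium, against 8.91% and 5.80% of all genes, and 18 did not pass. The median log2 difference was 1.10, below the 2.76 of the 9 genes above and over the 0.11 of all genes. Efemp2, Loxl2 and Adamts17 were not analysed here.

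Among 14 microfibril and elastic fibre proteins, 8 were higher in mesenchyme. Emilin1, whose protein sits between elastin and microfibrils, had 7155, 5928 and 5487 in mesenchyme, against 134.4, 133.3 and 162.4 in urothelium, a log2 difference of 5.04 ± 0.32 (adjusted p = 3.86e-06). A second Emilin1 probe set differed by 1.51 and did not pass, and the mean of its probe sets differed by 3.28. Emilin3 differed by 4.59 ± 0.59 and the related multimerin genes Mmrn2 and Mmrn1 by 4.24 ± 0.50 and 2.58 ± 0.43. Multimerins are known from endothelium and platelets, and all 7 endothelial markers were also higher in mesenchyme, with summed signals of 13471 to 17412 in mesenchyme, against 694.4 to 868.1 in urothelium; their part in the multimerin values was not tested. Ltbp1 (3.19 ± 0.35) and Ltbp3 (2.24 ± 0.28), which encode fibrillin-like proteins that hold latent TGF-beta, were higher in mesenchyme as well. Fbln7 and Efemp1, of the fibulin family, differed by 2.02 ± 0.41 and 1.85 ± 0.36. Hmcn1 (hemicentin 1, also called fibulin 6), named after its values were seen, had 507.0, 787.6 and 1285 in mesenchyme, against 277.6, 84.8 and 523.1 in urothelium; the layers overlapped and it did not pass (1.56 ± 0.57, adjusted p = 0.107). Further probe sets of Mmrn1 (−0.01), Mmrn2 (1.65), Ltbp1 (1.07) and Ltbp3 (0.37 and 0.44) did not pass either. Others of Mmrn2 (5.10 and 2.51), Ltbp1 (1.88) and Ltbp3 (3.06) passed as higher in mesenchyme. Among these 8 genes the adjusted p was lowest for Emilin1 (3.86e-06) and highest for Fbln7 (0.00606).

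Of 8 measured cross-linking and processing enzymes, 2 were higher in mesenchyme, where 8.91% of all genes were. So small a count is no result about this class. Both are lysyl oxidase paralogs, and another measured paralog of lysyl oxidase did not pass. Loxl1, which in mice is needed to maintain elastic fibres, had 1797, 4645 and 5545 in mesenchyme, against 67.6, 113.8 and 185.4 in urothelium, a log2 difference of 4.50 ± 0.49 (adjusted p = 9.49e-05). A second Loxl1 probe set differed by 0.74 and did not pass. Loxl3 differed by 3.29 ± 0.37. Bmp1, whose protease activates the precursor of lysyl oxidase, and Atp7a, the copper transporter that supplies the enzyme, did not pass: Bmp1 differed by 1.13 ± 0.45 (adjusted p = 0.137) and Atp7a by 0.62 ± 0.47 (adjusted p = 0.488). Atp7a read 4671 on mesenchyme 1, against 14744 and 17451 on mesenchyme 2 and 4, and 4889, 6422 and 10436 on the urothelium arrays. Without mesenchyme 1 it passed at 1.21 (adjusted p = 0.0405), and without both mesenchyme 1 and urothelium 5 at 0.97 (0.0488).

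Of 7 measured ADAMTS family genes tied to microfibrils, 1 passed: Thsd4, whose protein promotes fibrillin assembly, at 2.82 ± 0.40 (adjusted p = 0.000569). A second Thsd4 probe set differed by 0.51 and did not pass. A count of 1 in 7 is near the 8.91% of all genes higher in mesenchyme and is no result about this family. Mfap3, a gene of similar name to the microfibril glycoproteins, had 6675 ± 997 in mesenchyme and 5276 ± 527 in urothelium and did not pass (0.33 ± 0.25, adjusted p = 0.488).

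Mfap3l, a gene of similar name to Mfap3, was chosen after its values were seen and was the list's largest difference towards urothelium. A similar name is no evidence of a part in elastic fibres. Mfap3l had 298.8, 449.2 and 302.3 in mesenchyme, against 423.9, 3985 and 1693 in urothelium. Urothelium 5 lay within the mesenchyme arrays, and the difference of −1.93 ± 0.66 did not pass (adjusted p = 0.0806). It passed without urothelium 5 (−2.76, adjusted p = 0.00408). A further Mfap3l probe set passed as higher in urothelium (−2.74, adjusted p = 0.0173), and another did not pass (−0.56, adjusted p = 0.707).

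**Figure D5:**
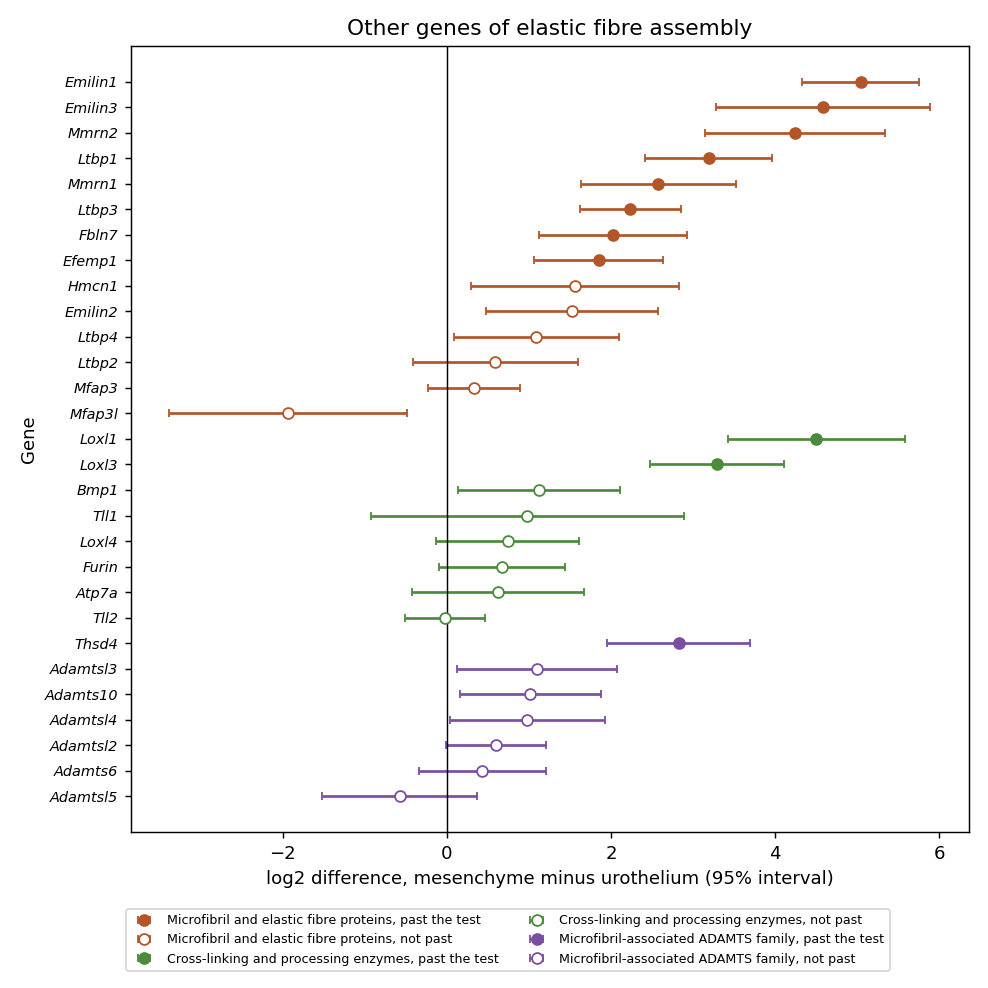
Log2 difference, mesenchyme minus urothelium, with its 95% interval, for 29 other genes of elastic fibre assembly in 3 classes; filled points had an adjusted p under 0.05. The 11 filled points all lie to the right, towards mesenchyme.

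Over the 6 arrays, the genes outside these lists whose log2 signals followed the mean standardised profile of the 9 genes most closely were Gask1b (Pearson's r = 0.9990), the Wnt antagonist gene Sfrp1 (0.9986), the homeobox gene Pitx1 (0.9984), the secreted kinase gene Pkdcc (0.9984) and Tvp23a (0.9981). They were taken from 8552 genes with a mean signal of at least 1000 in a layer, of which 80 had r over 0.99. The 6 points fall into 2 layers, so that r mostly reflects the difference between them.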

How the data were processed

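Bladder mesenchyme and urothelium were measured on 3 arrays each. The authors deposited 1 intensity per array, not on a log scale, for each of 45101 probe sets. GCOS is named in the submitters' processing notes, with no algorithm. The mean after trimming 2% at each end was 1500.01 on every array, so the deposited intensities were taken as scaled, which hides differences in total RNA. After leaving out 64 control probe sets, 34945 had a single symbol in the platform annotation, 932 had several and 9160 had none. Each of 18193 genes was represented by the probe set with the highest mean log2 value. Symbols of the 9 measured genes were the same in RefSeq.

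Log2(signal + 45.1) was fitted with limma 3.58.1 in R 4.3.3 (eBayes with an intensity trend; Benjamini-Hochberg adjustment), a fit tested on simulated data, where the recovery demanded was lowered once an initial run had missed it. Paralog ratios used exact permutation; Fbn1 over Fbn2 was planned and could not be computed. Replicate numbers do not overlap between layers and the sources give no batch. Alternatives were other pseudocounts, scalings, filters, variance models, array weights, probe set rules and arrays left out. The number of arrays limits the precision. Members, lists, alternatives and the naming rule (all members, every listed partner gene past the test with the 3 brightest of the others, and the 5 most alike genes) were chosen with earlier results of these data known. Hmcn1, Mfap3l and Tll2 fall outside the rule and were named after their values were seen.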

Additional observations from a re-analysis of the deposited data

How the results depend on the processing

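Between 7 and 9 of the 9 genes were higher in mesenchyme and 0 in urothelium under 16 alternatives. Eln, Fbn2, Mfap2, Mfap4, Fbln5 and Lox passed under all 16. Mfap5 passed under 11 of 15, Fbln1 under 13 of 16 and Fbln2 under 14 of 15; Mfap5 and Fbln2 were not tested when only genes above the median signal were kept, where the count was 7. Leaving out each array in turn gave 7 to 9 genes. No paired analysis was possible because the replicate numbers of the layers differ. For the other genes of elastic fibre assembly, the count higher in mesenchyme was 19 with array weights and 11 to 13 with an array left out. The count higher in urothelium was 1, Mfap3l, after quantile normalization, with arrays centred on their medians, with array weights, averaging probe sets and without both mesenchyme 1 and urothelium 5, and 0 to 1 with an array left out. In the mean of probe sets the shift of Fbln1 over Fbln2 turned to 0.11 (exact permutation, adjusted p = 0.7), an average that takes in their dim probe sets and the other bright Fbln1 probe set. Tll2 did not pass under any alternative that tested it and turned from −0.03 to 0.0012 with array weights, lay between −0.083 and 0.029 with an array left out, and was 0.034 without both mesenchyme 1 and urothelium 5. With a pseudocount of 1 it was −0.25. Tll2 read 2.38 to 10.97 on all arrays, below the pseudocount of 45.1, so its small difference says little. Over all genes, 1621 were higher in mesenchyme and 1055 in urothelium; array weights gave 2996 and 2055, genes above the median signal 998 higher in mesenchyme, and leaving out urothelium 7 gave 660 higher in urothelium. The causes of these changes were not tested. The median of all genes was 0.11, and −0.08 with arrays centred on their medians. Without detection calls, signals near the pseudocount have no known floor.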
